A study of Mus musculus with 6 samples.

Results

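Spp1, Ibsp, Dmp1 and Mepe encode osteopontin, bone sialoprotein, dentin matrix protein 1 and matrix extracellular phosphoglycoprotein, secreted phosphoproteins of bone and dentin that are grouped as the SIBLING family (small integrin-binding ligand, N-linked glycoproteins). They were picked by gene name among the 54532 genes of the count table, and each of the 4 names matched 1 gene identifier. Dspp, which encodes dentin sialophosphoprotein and is the remaining gene of the family, was read alongside them.

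The RNA came from bone marrow mesenchymal stromal cells (BMSCs) of wild type mice, adherent marrow cells that can form osteoblasts, kept for 7 days in osteogenic medium. The medium held dexamethasone, ascorbic acid and β-glycerophosphate in both groups, and the dexamethasone concentration in the sample labels differs from that in the paper. The Ni group, with 3 libraries, also received 0.1 μM NiCl2, and the control group, with 3 libraries, did not. The labels do not say whether the replicates were separate animals or cultures, so the p-values measure the spread between these libraries, which may be technical. The comparison asks how a low dose of nickel moves gene expression during osteogenic differentiation.

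The SIBLING proteins are secreted into the matrix by osteoblasts and osteocytes (or, in teeth, odontoblasts), where their acidic stretches and phosphorylated serines bind calcium and hydroxyapatite. Osteopontin restrains crystal growth and tethers cells to mineral, bone sialoprotein promotes the start of mineral deposition, and DMP1 and MEPE are best known from osteocytes, where they bear on mineralization and phosphate handling. Osteopontin is also made by macrophages and osteoclasts, while bone sialoprotein is far more restricted to mineralizing tissue.

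The 4 genes lie within 238 kb of each other on the plus strand of chromosome 5 (GRCm38). From left to right they are Dmp1 (ENSMUSG00000029307, chr5:104202613-104214102), Ibsp (ENSMUSG00000029306, chr5:104299171-104311469), Mepe (ENSMUSG00000053863, chr5:104325329-104338611) and Spp1 (ENSMUSG00000029304, chr5:104435118-104441050). The coding feature that gives the family its name is the Arg-Gly-Asp (RGD) tripeptide, which integrins bind. It was found once in the coding sequence of each of the 4 genes, against 7.13% of 21724 coding genes with at least 1 such run of codons. The letters below are shown because they are a short stretch that all 4 proteins have in common, with the RGD codons in capitals and 12 coding bases either side, read from the GENCODE M21 transcripts.
Spp1: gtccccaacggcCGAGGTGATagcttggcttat
Ibsp: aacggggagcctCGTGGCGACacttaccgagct
Dmp1: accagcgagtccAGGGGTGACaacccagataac
Mepe: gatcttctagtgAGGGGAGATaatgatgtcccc
The codons fell in exon 6 of 7 in Spp1 (chr5:104439469-104439501), exon 7 of 7 in Ibsp (chr5:104310463-104310495), exon 6 of 6 in Dmp1 (chr5:104212495-104212527) and exon 3 of 3 in Mepe (chr5:104337530-104337562). The codons themselves differed between the genes.

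Beyond RGD, 3 of the genes shared a lean towards acidic and serine codons. Codons for Asp, Glu and Ser made up 50.9% of the Dmp1 coding sequence of 503 codons, 40.5% of Spp1 (294 codons) and 32.1% of Ibsp (324 codons), against a median of 19.1% over the coding genes. In Mepe (441 codons) the share was 24.7%, at percentile 90.5 of the coding genes. Its Asp and Glu codons alone came to 10.7%, close to the median of 11.2%. Ser-x-Glu, the codon pattern of the sites that the secretory kinase FAM20C phosphorylates, occurred 40 times in Dmp1, 20 times in Spp1, 8 times in Ibsp and 7 times in Mepe.

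The 4 genes stood at very different levels, and Spp1 was among the most abundant transcripts of the cultures. Spp1 stood at 2833, 2569 and 5417 FPKM (reads scaled by gene length and library size) in control replicates 1, 2 and 3 and at 6050, 4800 and 5966 FPKM in Ni replicates 1, 2 and 3. By FPKM it ranked 8, 11 and 5 among all genes in the controls and 4, 5 and 3 in the Ni libraries. Ibsp ranked 71, 93 and 23 in the controls and 10, 20 and 9 in the Ni libraries. Spp1 was above Ibsp by 2.11 to 6.47 times, Ibsp above Dmp1 by 29.0 to 87.5 times and Dmp1 above Mepe by 4.32 to 20.4 times on the FPKM scale. This order was the same in 6 of 6 libraries. Across libraries, of the neighbours in this order Spp1 and Ibsp overlapped, since Ibsp in Ni replicate 3 was above Spp1 in control replicate 2. Dspp, the dentin member, was close to absent from the reads, with 0, 1 and 2 in the controls, then 1, 0 and 2 after nickel, all under a floor of 3 counts (0.161 to 0.186 CPM, counts scaled to library size alone), and was not tested.

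**Figure D1:**
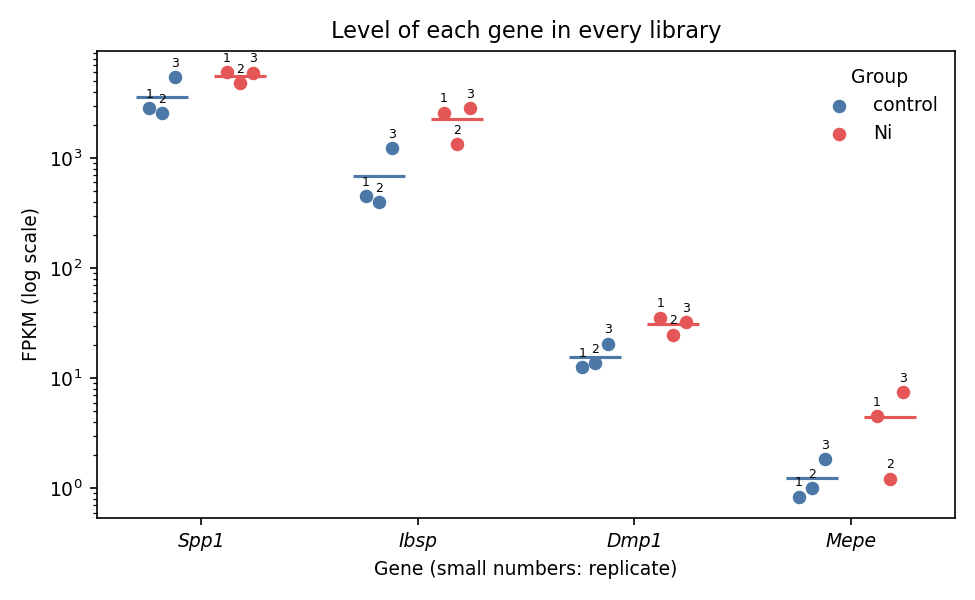
FPKM (log axis) of Spp1, Ibsp, Dmp1 and Mepe in each of the 3 control and 3 Ni libraries, numbered by replicate, with a line at the group mean. Control replicate 3 is the highest control for every gene, and the Ni points lie wholly above the controls for Ibsp and Dmp1 only.

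All 4 genes had a higher mean in the Ni group, by 1.55-fold for Spp1, 3.24-fold for Ibsp, 1.98-fold for Dmp1 and 3.59-fold for Mepe. None passed an adjusted p of 0.05 in edgeR's quasi-likelihood test over the 14624 genes that passed its filter on low counts, and 0% of all genes did. At an unadjusted p under 0.05, 4 of 4 were higher, against 7.59% of the genes tested that were higher and 5.83% that were lower. For 2 of the 4, Ibsp and Dmp1, every Ni library was above every control, against 7.97% of all genes tested. In DESeq2, run as an alternative, 2 of the 4, Dmp1 and Mepe, passed an adjusted p of 0.05 as higher, against 1.46% of 14337 genes. In these bulk samples, a change in the number of cells of a type and a change in RNA per cell cannot be told apart.

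Ibsp was at 449, 397 and 1223 FPKM in the 3 controls and at 2571, 1336 and 2828 FPKM in the 3 Ni libraries. The groups did not overlap, though the highest control and the lowest Ni library were close. The means were 689.8 ± 463 FPKM in the controls and 2245 ± 798 FPKM in the Ni group (SD, n = 3 each). Its log2 fold change (Ni minus control) was 1.70 ± 0.51 (SE), with a 95% interval of 0.47 to 2.92, an unadjusted p of 0.0140 and an adjusted p of 0.309 by edgeR's quasi-likelihood test. An exact two-sided permutation test of CPM gave p = 0.1, the smallest that 3 against 3 allows. DESeq2 gave an adjusted p of 0.152.

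Dmp1, the osteocyte-associated member with the least spread between replicates, was at 12.5, 13.7 and 20.6 FPKM in the controls and at 35.5, 24.8 and 32.3 FPKM in the Ni libraries. These groups did not overlap either. The means were 15.6 ± 4.38 and 30.9 ± 5.50 FPKM (SD, n = 3 each). The log2 fold change was 0.98 ± 0.20 (SE; 95% interval 0.52 to 1.45), with an unadjusted p of 0.00109 and an adjusted p of 0.212 by edgeR's quasi-likelihood test. The exact permutation p was again 0.1, and the adjusted p of DESeq2 was 0.000432.

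Spp1, at the FPKM values given above, overlapped between the groups, since control replicate 3 was above Ni replicate 2. Its means were 3606 ± 1574 FPKM in the controls and 5606 ± 698.5 FPKM in the Ni group (SD, n = 3 each). The log2 fold change was 0.63 ± 0.27 (SE; 95% interval 0.01 to 1.25), with an unadjusted p of 0.0457 and an adjusted p of 0.367 by edgeR's quasi-likelihood test. The exact permutation test gave p = 0.2, and DESeq2 an adjusted p of 0.490. Of the 1648 exon bases of Spp1, 309 are shared with Gm42793, an unconfirmed gene model on the same strand that received 34 to 67 counts per library, against 67709 to 184205 for Spp1.

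Mepe rested on few reads, 26, 27 and 52 in the controls, then 141, 36 and 229 after nickel. In FPKM these were 0.839, 1.00 and 1.84 in the controls and 4.54, 1.22 and 7.49 in the Ni libraries. Ni replicate 2 was below control replicate 3, and the highest Ni library was 6.10 times the lowest. The log2 fold change was 1.84 ± 0.62 (SE; 95% interval 0.40 to 3.29), with an unadjusted p of 0.0186 and an adjusted p of 0.323 by edgeR's quasi-likelihood test. The exact permutation p was 0.2, and DESeq2 gave an adjusted p of 0.0230.

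Control replicate 3 carried more of every member than the other controls. It held 2.01 times the mean of control replicates 1 and 2 for Spp1, 2.90 times for Ibsp, 1.58 times for Dmp1 and 2.00 times for Mepe, in CPM. Some macrophage genes were also highest in control replicate 3 among the controls. Lyz2 (lysozyme) was at 7798, 7255 and 11360 FPKM in control replicates 1, 2 and 3, and Mrc1 (the mannose receptor) at 247, 217 and 395 FPKM. Adgre1 (F4/80) was lowest there, at 1144, 1159 and 781 FPKM. Itgam (71.8, 72.9 and 59.3 FPKM), Ptprc (25.6, 23.4 and 17.2 FPKM) and Tyrobp (582, 796 and 566 FPKM) were lowest there too. The summed macrophage list took 2.86%, 2.88% and 3.46% of counts in these libraries. Lyz2 weighs heavily in that sum, with 189028, 152670 and 251667 counts. The part of the list in the levels of the members was not tested. Over all genes tested, control replicate 3 was nearer to the Ni libraries (mean distance of 1 minus Pearson's r, 0.0131) than to the other controls (0.0220). Without it the log2 fold changes were 1.06 for Spp1, 2.41 for Ibsp, 1.24 for Dmp1 and 2.26 for Mepe, and the adjusted p-values of edgeR were 0.000167, 0.0302, 0.000195 and 0.183, while the genes called went from 0 to 2283. With any other single library left out, none of the 4 passed an adjusted p of 0.05, and the log2 fold changes stayed positive, at 0.44 to 0.73 for Spp1, 1.42 to 1.96 for Ibsp, 0.85 to 1.12 for Dmp1 and 1.23 to 2.29 for Mepe. The low end for Mepe came without Ni replicate 3 and the high end without Ni replicate 2. In those fits the unadjusted p of Spp1 rose above 0.05 without control replicate 1 (0.138), control replicate 2 (0.132), Ni replicate 1 (0.111) and Ni replicate 3 (0.110), and its adjusted p by edgeR was 0.305 or more in all 5. The unadjusted p of Mepe rose above 0.05 without control replicate 1 (0.0623), control replicate 2 (0.0681), Ni replicate 3 (0.0653) and control replicate 3 (0.0503). The number of members at an unadjusted p under 0.05 was 2 of 4 without control replicate 1, control replicate 2 or Ni replicate 3. It was 3 of 4 without control replicate 3 or Ni replicate 1, and 4 of 4 without Ni replicate 2. Of all genes tested, those higher at that threshold numbered 607 of 14924, 599 of 14991 and 2285 of 15044 without control replicates 1, 2 and 3. They numbered 635 of 14975, 1249 of 15004 and 694 of 14949 without Ni replicates 1, 2 and 3. The edgeR biological coefficient of variation, the spread between replicates beyond counting noise, was 0.175 for Dmp1, 0.225 for Spp1, 0.353 for Ibsp and 0.451 for Mepe, against a median of 0.138 over all genes tested.

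**Figure D2:**
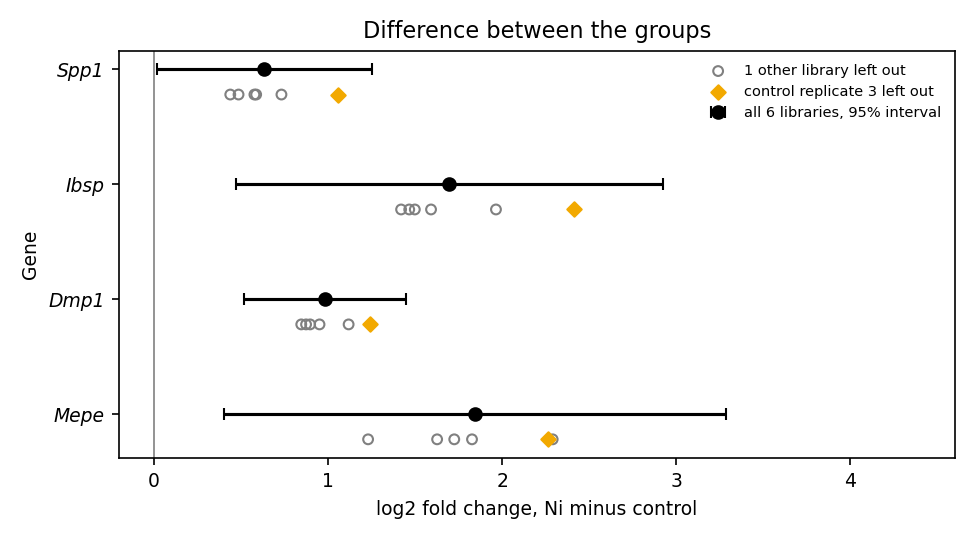
Log2 fold change (Ni minus control, horizontal axis) of each gene with its 95% interval from the edgeR fit of 6 libraries (black), and from the fits with 1 library left out (grey circles; diamond, control replicate 3). Every point lies above 0, and leaving out control replicate 3 gives the highest value for Spp1, Ibsp and Dmp1.

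Relative to Spp1, Ibsp was higher in every Ni library than in any control. How many other genes also separate in their ratio to Spp1 was not counted. Spp1 itself had the smallest log2 fold change of the 4 genes. Together the 4 genes took 0.571%, 0.506% and 1.17% of all counts in the controls and 1.53%, 1.09% and 1.59% in the Ni libraries. Spp1 made up 86.0%, 86.2% and 81.3% of the family's summed FPKM in the controls and 69.8%, 77.9% and 67.5% in the Ni libraries. For each unit of Spp1, Ibsp stood at 0.159, 0.154 and 0.226 in the controls and at 0.425, 0.278 and 0.474 in the Ni libraries, in FPKM. These groups did not overlap. The log2 ratio of Ibsp to Spp1 was 1.11 ± 0.29 (SE) higher in the Ni group (exact two-sided permutation test, p = 0.1, the smallest possible; adjusted over 3 ratios, 0.3), and it stayed between 0.96 and 1.34 with any 1 library left out. The ratios of Dmp1 and of Mepe to Spp1 overlapped between the groups, with differences of 0.29 ± 0.15 (exact permutation p = 0.2, adjusted 0.3) and 0.83 ± 0.67 (exact permutation p = 0.4, adjusted 0.4). These tests cannot reach 0.05 with 3 libraries a group.

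**Figure D3:**
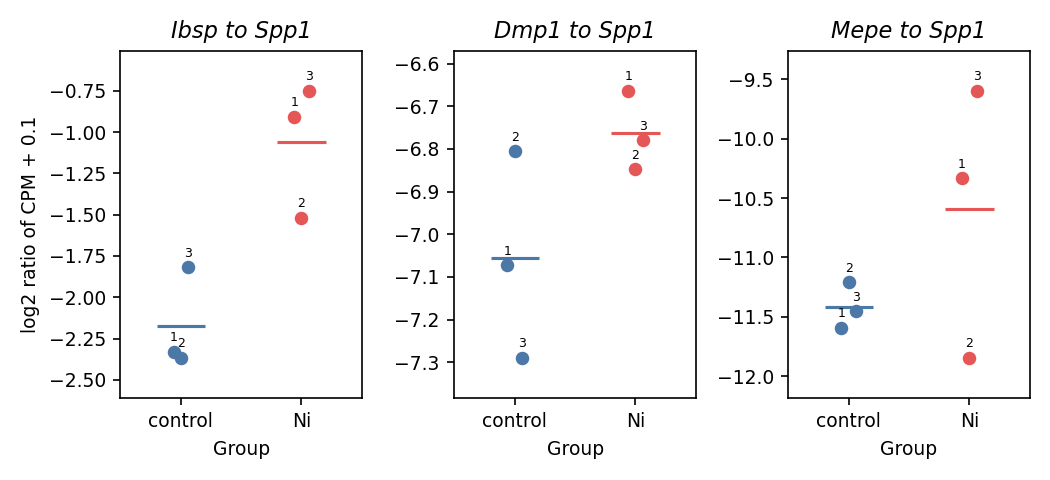
Log2 ratio of Ibsp, Dmp1 and Mepe to Spp1 (CPM + 0.1) in each library, numbered by replicate, with lines at the group means; each panel has its own vertical range. The 3 Ni points are above the 3 control points for Ibsp, and the groups overlap for Dmp1 and Mepe.

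The 4 genes followed each other across the 6 libraries, given here as a description over points that share library and group. Pearson's r of log2 CPM was 0.983 between Ibsp and Dmp1, 0.965 between Spp1 and Ibsp, 0.931 between Spp1 and Dmp1, 0.896 between Ibsp and Mepe, 0.866 between Dmp1 and Mepe and 0.798 between Spp1 and Mepe. By r with Spp1, Ibsp ranked 396, Dmp1 865 and Mepe 2288 among the 14623 other genes tested. By r with Dmp1, Ibsp ranked 82. Genes outside the family thus followed the members more closely than the members followed each other. The 5 genes most like Spp1 were Inhba (the activin A subunit, r = 0.999), Pam, Col8a1, Tnfrsf22 and Cnn3. For Ibsp they were Postn (periostin, a matrix protein of periosteum, r = 0.999), Ppic, Cxxc5, Srpx2 and Lpar1. For Dmp1 they were Hspb7 (r = 0.9996), Serpinf1, Alpl (tissue-nonspecific alkaline phosphatase), Creb3l1 and Col1a2 (a chain of type I collagen). For Mepe they were Tmco1 (r = 0.993), K230010J24Rik, Hacd2, Slf1 and Zfp367. No gene was named for more than a single member, but a cut at 5 genes does not show that the members have different neighbours. Alpl and Col1a2, named for Dmp1, also had r = 0.984 (rank 129) and r = 0.983 (rank 140) with Ibsp.

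The receptors of these proteins, integrin chains and the hyaluronan receptor Cd44, showed small differences. Of 9 listed, 9 were tested, 7 had a positive log2 fold change and the median was 0.16 (0.11 without control replicate 2 and 0.23 without Ni replicate 2), beside a median of -0.01 over all genes tested. None was higher at an unadjusted p under 0.05 in edgeR, and 1, Itga9, an integrin chain that binds osteopontin, was lower, with a log2 fold change of -0.34 (adjusted p = 0.351 by edgeR). Itga8, a chain of an RGD-binding integrin, was at 0.34, Itga5 at 0.28 and Itgb1, which pairs with many alpha chains, at 0.21, none at an unadjusted p under 0.05.

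Enzymes that phosphorylate, cleave, cross-link or dephosphorylate SIBLING proteins went both ways. Of 13 tested, 4 had an unadjusted p under 0.05 by edgeR and were higher, against 7.59% of all genes tested. Another 2 had one and were lower, against 5.83%. The median log2 fold change was 0.16. Without control replicate 2 that median was -0.06, and without control replicate 3 it was 0.41. Phex, a membrane peptidase that cleaves the acidic peptide of MEPE and osteopontin, was at 0.587, 0.338 and 0.784 FPKM in the controls and at 1.58, 0.787 and 2.38 FPKM in the Ni libraries, with a log2 fold change of 1.47 ± 0.43 (SE; adjusted p = 0.295 by edgeR). Alpl, which can remove phosphate from osteopontin, was at 25.9, 29.0 and 49.3 FPKM in the controls and at 85.8, 57.5 and 76.3 FPKM in the Ni libraries, with a log2 fold change of 1.07 ± 0.26 (SE; adjusted p = 0.258 by edgeR). Neither gene overlapped between the groups, and 7.97% of all genes tested had every Ni library above every control. For Phex the gap was very small, with 83 counts in control replicate 3 and 87 in Ni replicate 2. Bmp1, the protease that processes DMP1, was 0.55 higher, and Fam20c, the kinase of the family, differed by -0.07, on the log2 scale. The pair that was lower, Acp5 (-0.90) and Mmp9 (-0.83), are enzymes of osteoclasts and macrophages. Acp5 was at 495.7, 581.9 and 203.2 FPKM in the controls and at 236.4, 246.8 and 203.6 FPKM in the Ni libraries, so control replicate 3 was below every Ni library.

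Genes of the osteoblast lineage were mostly at a positive log2 fold change, and none passed an adjusted p of 0.05 in edgeR. All 8 osteoblast transcription factors tested of 9 listed had a positive log2 fold change, 6 at an unadjusted p under 0.05, with a median of 0.54. Dlx3 was 1.26 higher, Sp7 (osterix) 0.88 and Runx2, the first osteoblast factor, 0.54, on the log2 scale, while Dlx6, at 0.68, and Atf4, at 0.04, did not pass that threshold. Of 7 other mineral-binding matrix genes tested of 8 listed, 6 were higher at an unadjusted p under 0.05, led by Bglap2 (1.69) and Bglap (1.68), which encode osteocalcin and are near-identical copies whose reads can be split between them, Col1a1 (1.13) and Col1a2 (0.97). Mgp, an inhibitor of mineralization, differed by -0.16. Of 7 osteocyte genes tested of 10 listed, 6 had a positive log2 fold change and 5 were higher at an unadjusted p under 0.05. Among these were Ptprz1 at 1.70, on 24 to 134 counts per library, Phex at 1.47 and Cd109 at 0.84. Fbln7 was at -0.61 on 3 to 14 counts per library. Sost, which defines mature osteocytes, had 0 counts in every library. The lists overlap, since Phex, Alpl, Acp5, Mmp9, Sp7, Runx2, Col1a1, Bglap and Bglap2 each stand in more than a single list.

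**Figure D4:**
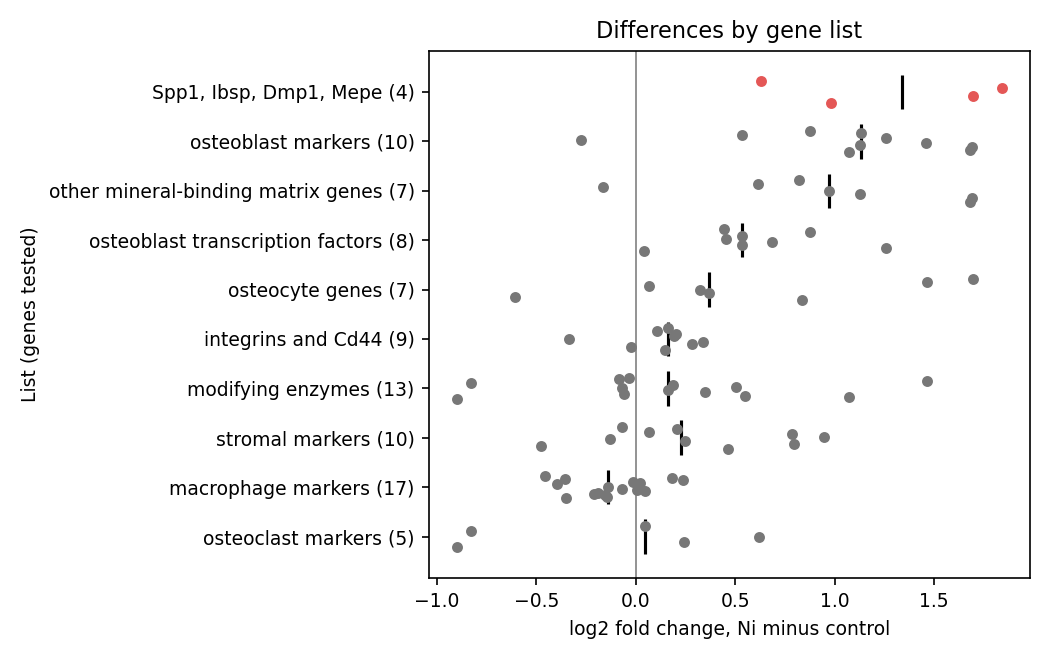
Log2 fold change (Ni minus control) of every tested gene in the lists named, 1 point a gene, with a black line at each list's median and the number tested in brackets; red points are Spp1, Ibsp, Dmp1 and Mepe. The family and the osteoblast and matrix lists lie mostly right of 0, while the macrophage list straddles it.

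Because osteopontin is also made outside bone cells, markers of other cells were read beside these results, and their part in them was not tested. Of 10 osteoblast markers, 9 were higher at an unadjusted p under 0.05, with a median of 1.13. Bglap2, Bglap, Ifitm5 (1.46) and Pth1r (1.26) led them, while Phospho1 was at -0.27 on 3 to 15 counts per library. The summed list took 0.478% to 0.899% of counts in the controls and 1.21% to 1.49% in the Ni libraries. Of 17 macrophage markers, all tested, 6 had a positive log2 fold change, 3 were lower at an unadjusted p under 0.05 and the median was -0.14 (-0.07 without Ni replicate 3). Those lower were Tyrobp (-0.45), Itgam (-0.40) and Ptprc (-0.36), and Adgre1 was at -0.35. Across the 6 libraries Pearson's r of these markers with Spp1 ran from -0.934 (Ptprc) to 0.934 (Mrc1), with Cd68 at 0.813 and Lyz2 at 0.780, as a description. The macrophage list took 2.86% to 3.46% of counts in the controls and 2.90% to 2.96% in the Ni libraries. The stromal list took 0.384% to 0.453% and 0.423% to 0.443%. These lists differ in length and in the abundance of their genes, so the shares do not compare numbers of cells. The mineral-binding matrix list, which holds Col1a1 and Col1a2, took 1.00% to 1.76% in the controls and 2.23% to 2.79% in the Ni libraries. The cultures are labelled mesenchymal stem cells, and Lyz2, a macrophage gene, stood above Spp1 in all 6 libraries, at 7255 to 11360 FPKM in the controls and 8119 to 9531 FPKM in the Ni libraries. Of 9 osteoclast markers, 5 were tested, 2, Acp5 and Mmp9, were lower at an unadjusted p under 0.05 and the median was 0.05. That median was below 0 without control replicate 2 (-0.02), control replicate 3 (-0.01) or Ni replicate 3 (-0.10). Ctsk (cathepsin K) was at 0.62 and Atp6v0d2 at 0.24, neither at that threshold, while Calcr had 0 counts in the 3 Ni libraries and Ocstamp and Dcstamp had at most 8 counts in any library. The osteoclast list took 0.0727% to 0.140% of counts in the controls and 0.0690% to 0.0764% in the Ni libraries. Of 10 stromal markers, 3 were higher at an unadjusted p under 0.05, among them Lum (0.95) and Dcn (0.80), small proteoglycans that bind collagen, Nt5e was at 0.79 without passing it, and 1, Cxcl12 (-0.47), was lower (median 0.23). The stromal median was 0.38 without control replicate 3. Of 5 adipocyte markers 1, Lpl (-0.49), was lower. Plin1 (1.52, on 1 to 44 counts per library), Fabp4 (0.43) and Adipoq (0.16) did not pass the threshold. The adipocyte median was 0.16 (0.09 without Ni replicate 3 and 0.26 without Ni replicate 2). Of 4 chondrocyte markers tested 3, Col10a1 (1.02), Sox9 (0.90) and Col2a1 (0.50), were higher (median 0.70). Matn3 was at -0.95 on 2 to 30 counts per library without passing the threshold.

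The other genes of the chromosomal neighbourhood showed smaller differences. Within 500 kb of the family's span lie 25 other annotated genes, 12 of them protein-coding, and 11 were tested. Their log2 fold changes ran from -0.35 (Gm42793, which overlaps Spp1) to 0.29 (Klhl8), with a median of 0.01. At an unadjusted p under 0.05 by edgeR, 1 was higher, Pkd2, which lies 24.3 kb from the start of Spp1 (log2 fold change 0.25, adjusted p = 0.356), and 0 were lower. Over all genes tested, 7.59% were higher and 5.83% lower at that unadjusted threshold. Sparcl1, a relative of the family on the far side of Dmp1, was at 0.20 (adjusted p = 0.684 by edgeR), and Aff1, Hsd17b11, Nudt9, Abcg3, BC005561 and Zfp951 lay between -0.18 and 0.16. Enam, Ambn, Amtn and Odam, enamel genes of the same larger family of secretory calcium-binding phosphoproteins, had 0 counts in every library, which at 3 counts allows no more than 0.186 CPM.

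**Figure D5:**
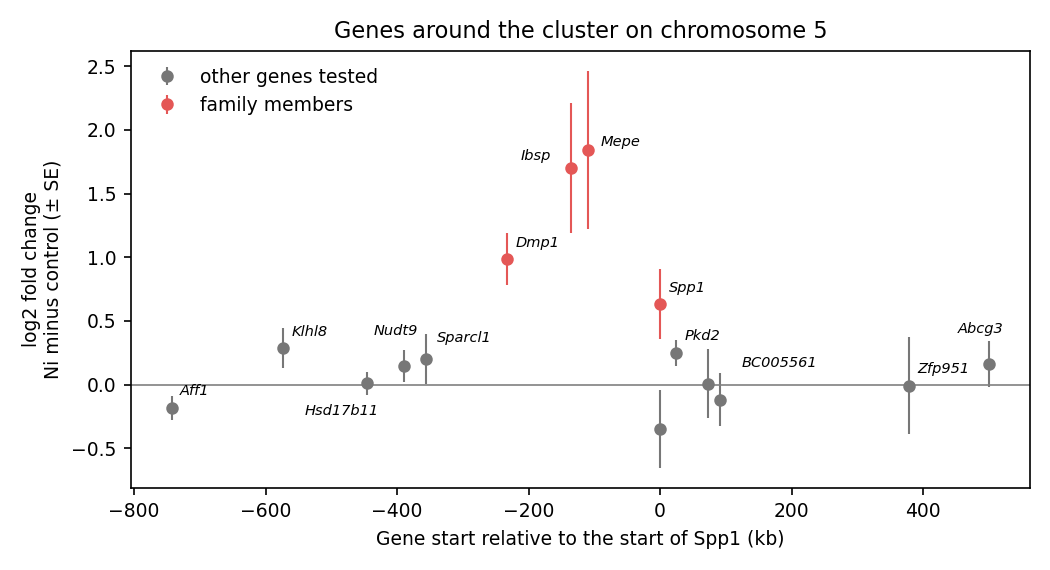
Log2 fold change (Ni minus control, ± SE) of the tested genes around the cluster against the distance of their start from that of Spp1, in kb; red points are the family and grey points the other 11 genes, with protein-coding genes named. The 4 red points lie above all grey points.

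The sequences just upstream of 3 of the 4 genes, Spp1, Dmp1 and Mepe, are shown so that their shared letters can be compared with windows of the same length over all promoters. The windows searched were the 250 bases before the RefSeq start (GRCm38.p6, plus strand; 1 of 2 listed starts for Spp1 and Dmp1). Each is printed up to the earlier of the RefSeq start and the deposited gene start. Capitals mark the core of a RUNX site, spelled ACCACA, on either strand. They also mark the CCAAT box and 2 spellings that resemble a core promoter box, TTTAAA together with the variant spelled TTTATA, again on either strand. The motifs were picked with these sequences in view.
Spp1, chr5:104434861-104435110: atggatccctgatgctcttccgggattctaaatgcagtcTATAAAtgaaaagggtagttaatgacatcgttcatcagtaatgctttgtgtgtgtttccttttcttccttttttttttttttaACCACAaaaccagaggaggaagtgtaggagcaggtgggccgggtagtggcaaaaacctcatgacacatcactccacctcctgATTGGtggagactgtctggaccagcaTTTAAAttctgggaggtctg
Dmp1, chr5:104202367-104202612: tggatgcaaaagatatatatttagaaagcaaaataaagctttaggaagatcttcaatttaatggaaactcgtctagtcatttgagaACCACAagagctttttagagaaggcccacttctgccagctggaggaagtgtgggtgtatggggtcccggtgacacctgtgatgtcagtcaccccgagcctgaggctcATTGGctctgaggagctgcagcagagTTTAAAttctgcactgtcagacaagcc
Mepe, chr5:104325079-104325328: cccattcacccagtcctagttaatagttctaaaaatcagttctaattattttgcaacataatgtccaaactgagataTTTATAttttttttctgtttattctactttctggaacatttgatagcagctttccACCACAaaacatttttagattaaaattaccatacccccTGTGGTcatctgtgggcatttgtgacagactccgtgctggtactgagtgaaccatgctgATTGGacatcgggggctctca
On either strand, CCAAT was found in 3 of the 3 windows searched and in 33.8% of 32851 promoters. ACCACA was found in 3 of 3 and in 14.0% of promoters. TTTATA was found in 2 of 3 (12.4% of promoters) and TTTAAA in 2 of 3 (12.1%). In Spp1 and Dmp1 an inverted CCAAT began 46 and 57 bases before the start and TTTAAA began 20 and 31 bases before it. In Mepe the inverted CCAAT began 21 bases before the start and its TTTATA 173 bases before it. Neither TGACGT, the core of a cyclic AMP response element (6.47% of promoters), nor TGANTCA, the AP-1 site (6.75%), was found in the 3 windows. These are matches of letters and not sites shown to be bound.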

How the data were processed

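Mouse BMSC RNA was sequenced from 6 libraries (NEBNext Ultra RNA kit, per the labels). The authors deposited raw counts per gene and FPKM values. The deposited FPKM equal the authors' counts divided by deposited gene length and library depth, with a largest relative deviation of 4.08e-08. The build is GRCm38, and the aligner, counting tool and strand setting are not given in the sources used here. Totals ran from 16101033 to 18642504 counts per library. The count floor used for rare genes takes no account of the spread between libraries. The intervals of the log2 fold changes come from the edgeR fit and include that spread.

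Genes kept by filterByExpr were normalized by TMM and tested with the quasi-likelihood test of edgeR 4.0.16 (robust; R 4.3.3), with Benjamini-Hochberg adjustment over all 14624 genes. Standard errors are the unshrunk coefficient over the root of F. DESeq2 1.42.0 and limma 3.58.1 on log2(FPKM + 1) and log2(FPKM + 0.1) were alternatives, with other scalings and filters, a gene-length trend, a replicate block and each library left out. The scripts were tested on simulated data. Likeness used log2 CPM (prior count 2). No 2 libraries of a group agreed within sampling noise. Motifs and codons were searched in RefSeq promoters and GENCODE M21 transcripts. The genes named are the 4 members, Dspp, the genes within 500 kb, the 4 tested genes (or fewer) of each list with the largest absolute log2 fold change, defining markers near 0 and the 5 most alike per member; Atf4, Bmp1, Cd68, Fam20c, Lyz2, Mgp, Mrc1 and Phospho1 were chosen after their values were seen. A listed gene and a promoter window are not reported here. The members and lists were chosen with earlier results of these data known.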

Additional observations from a re-analysis of the deposited data

How the results depend on the processing

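No member changed direction under any alternative run, and the ratios to Spp1 kept theirs. Of 72 member results, 61 stayed on the same side of the threshold and 11 passed it. Of 234 list medians, 224 stayed within the spread, and 10 moved. The chondrocyte median, 0.70 in the main fit, was 0.48 in limma on log2(FPKM + 1), with or without the filter. It was 0.91 with at least 10 counts in every library. The macrophage median, -0.14 in the main fit, was -0.09 with a trend in gene length removed. The cause of the differences below was not tested.

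No gene passed an adjusted p of 0.05 in the edgeR fit, with 1963 at an unadjusted p under 0.05. The adjusted count was 1027 with no filter on low counts, 256 in DESeq2, 1 in limma on log2(FPKM + 1) with no filter, 315 with the replicate block and 256 with that block plus removal of a trend in gene length. It ran from 0 to 2283 with 1 library left out, the highest without control replicate 3, and was 13 without Ni replicate 2. Genes higher at an unadjusted p under 0.05 numbered 1768 with no filter and 599 to 2285 with 1 library left out. Those lower numbered 1289 with no filter, 542 in limma on log2(FPKM + 0.1), 1291 with the block and length trend, and 269 to 1840 with 1 library left out. Genes with every Ni library above every control numbered 1522 to 3345 with 1 library left out.

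With no filter, Spp1 was at 0.64 (adjusted p = 0.0199) and Dmp1 at 0.99 (adjusted p = 7.88e-13) in edgeR. In DESeq2, Dmp1 was at 0.99 and Mepe at 1.85. With the replicate block in edgeR, Ibsp was at 1.82 (adjusted p = 0.0243) and Dmp1 at 1.00 (adjusted p = 0.0337), and with the block and the length trend they were at 1.84 (adjusted p = 0.0194) and 1.01 (adjusted p = 0.0293). The block gave adjusted p-values of 0.0996 for Spp1 and 0.0684 for Mepe. Deviations of same-numbered libraries correlated at 0.01, 0.26 and 0.14, so the numbers were not taken to pair the samples. On the ratios, paired signs gave exact sign test p-values of 0.25, 1 and 1. With 1 library left out the log2 fold changes ran from 0.44 to 1.06 for Spp1, 1.42 to 2.41 for Ibsp, 0.85 to 1.24 for Dmp1 and 1.23 to 2.29 for Mepe. Mepe, with 26 to 229 counts, was 1.11 in limma on log2(FPKM + 1), a scale that shrinks low genes.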
